A study of Homo sapiens with 6 samples.

Results

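The sites described here are regions of open chromatin that carried an accessibility peak only after 6 h of phorbol ester. A site of the authors' deposited count table was taken when it overlapped, by 1 base or more, a deposited peak in both 6 h libraries and no deposited peak in either 0 h or either 72 h library. The members were thus chosen by the peak calls of these same 6 libraries. Of 181135 sites, 458 (0.253%) met this rule, and all 458 are described without a filter on low counts. ATAC-seq (assay for transposase-accessible chromatin, Omni-ATAC protocol) had been run on wild-type K562, an established human leukaemia cell line, given 25 nM PMA (phorbol 12-myristate 13-acetate) to drive it towards a megakaryocyte-like state. There were 2 libraries at 0 h, 2 at 6 h and 2 at 72 h of PMA, with 25 nM as the only dose and medium changed after 24 h and 48 h. All groups are the same line under the same culture conditions, and no vehicle-treated 6 h or 72 h group is among the samples, so time in culture and PMA cannot be told apart. The labels do not say whether the replicates were separate cultures, so p-values measure the spread between these libraries, which may be technical.

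In ATAC-seq a transposase cuts and tags DNA that is not covered by nucleosomes, so reads pile up at active promoters and enhancers. PMA mimics diacylglycerol and activates protein kinase C, which signals through ERK and NF-kB to immediate early genes, AP-1 factors and inflammatory genes. Responses of this kind are often brief, since the same pathways switch on their own inhibitors such as the dual-specificity phosphatases. K562 cells under PMA leave an erythroid-like state and take on megakaryocytic features over days.

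Promoter sequences are printed first for 2 sets of members, taken from RefSeq (GRCh38.p14, the assembly of the hg38 build the files use). The sequence of the sites themselves was not used here. Each sequence is the 250 bases before an annotated gene start, 5′ to 3′ on the gene's strand. Capitals mark letters matching AP-1 (TGANTCA), a narrow form of the NF-kB site or the cyclic AMP response element CRE (TGACGTCA), searched on both strands. The NF-kB form allowed any base at the fifth position and fixed all others. NF-kB sites that differ from it at another letter are not marked or counted, at CXCL8 or elsewhere. In the first set are the 4 genes of chromosome 4 that lay beside members, those of CXCL8 and AREG with the largest differences between 6 h and 72 h of all: CXCL8 (chr4:73740319-73740568, plus strand), CXCL3 (chr4:74038690-74038939, minus strand), CXCL2 (chr4:74099196-74099445, minus strand) and AREG (chr4:74444886-74445135, plus strand). These 4 windows lie outside the members, in sites that had peaks at other times too.
CXCL8: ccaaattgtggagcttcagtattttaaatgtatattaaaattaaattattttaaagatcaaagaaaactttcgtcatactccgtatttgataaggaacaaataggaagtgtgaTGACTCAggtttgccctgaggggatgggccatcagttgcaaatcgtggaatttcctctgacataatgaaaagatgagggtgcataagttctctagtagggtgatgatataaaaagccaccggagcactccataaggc
CXCL3: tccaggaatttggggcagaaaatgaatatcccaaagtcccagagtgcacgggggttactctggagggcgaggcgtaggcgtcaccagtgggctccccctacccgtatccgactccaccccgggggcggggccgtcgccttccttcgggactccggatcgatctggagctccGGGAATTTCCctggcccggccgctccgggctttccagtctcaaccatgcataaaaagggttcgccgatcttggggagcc
CXCL2: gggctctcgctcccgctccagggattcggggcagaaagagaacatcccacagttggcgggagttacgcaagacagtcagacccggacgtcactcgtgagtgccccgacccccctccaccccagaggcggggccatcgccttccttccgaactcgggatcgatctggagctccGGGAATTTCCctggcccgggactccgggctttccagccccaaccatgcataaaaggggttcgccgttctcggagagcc
AREG: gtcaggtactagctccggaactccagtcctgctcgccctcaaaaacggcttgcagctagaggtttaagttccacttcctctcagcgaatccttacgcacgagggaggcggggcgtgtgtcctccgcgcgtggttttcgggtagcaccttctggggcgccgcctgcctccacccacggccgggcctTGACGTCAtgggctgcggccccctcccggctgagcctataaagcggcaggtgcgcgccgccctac
The second set holds the protein-coding genes with a promoter window lying wholly inside a member: SBF2 (chr11:10303838-10304087, minus strand), C1orf226 (chr1:162381478-162381727, plus strand) and ATP1B4 (chrX:120361839-120362088, plus strand).
SBF2: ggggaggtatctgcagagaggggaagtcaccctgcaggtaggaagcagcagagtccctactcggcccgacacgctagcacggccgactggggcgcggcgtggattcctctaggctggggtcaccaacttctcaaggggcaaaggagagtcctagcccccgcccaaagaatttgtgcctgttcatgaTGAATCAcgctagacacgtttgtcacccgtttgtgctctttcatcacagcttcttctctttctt
C1orf226: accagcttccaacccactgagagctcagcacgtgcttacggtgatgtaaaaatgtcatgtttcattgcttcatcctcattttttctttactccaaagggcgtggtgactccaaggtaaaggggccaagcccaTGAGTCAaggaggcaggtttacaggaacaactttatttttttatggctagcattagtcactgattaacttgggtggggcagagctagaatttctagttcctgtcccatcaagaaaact
ATP1B4: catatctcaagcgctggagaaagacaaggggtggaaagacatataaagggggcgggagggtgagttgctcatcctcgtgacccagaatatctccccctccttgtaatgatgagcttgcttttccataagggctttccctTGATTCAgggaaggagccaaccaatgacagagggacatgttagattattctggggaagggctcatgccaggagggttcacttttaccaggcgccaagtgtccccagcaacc
Windows of the non-coding genes DUSP5-DT and MAGEB17-AS1 also lay wholly inside members and held none of these letters. CXCL8 and all 3 windows of the second set held 1 AP-1 match, CXCL2 and CXCL3 held an NF-kB match, and AREG held a CRE match. Members overlapped 17 promoter windows in all, at 16 sites, and 4 of the 17 windows (23.5%) held the AP-1 letters, against 6.57% of all 35116 windows in the RefSeq table. In the fourth, GRIN3B, the match lay outside the member itself. Over the 403 windows of the members' nearest genes, AP-1 letters were in 5.46%, below the share in all windows. NF-kB letters, in the narrow form searched, were in none of the 17 windows and in 0.527% of all windows. Looser forms of that site were not searched. CRE letters were in none of the 17 and in 1.65% of all windows. These are 3 of 10 motifs searched, marked here with the counts known. Of the other 7, the RUNX letters TGTGGT were in 2 of the 17 windows (10.98% of all windows) and the shared part of CTCF sites, CCCTC, in 14 (66.6%). The GATA letters AGATAA were in 1 window (9.17% of all), as were those of ETS factors, CCGGAA (14.5%), those of KLF factors, GGGTGTGG (2.97%), and those of an E-box, CAGATG (12.2%). The EGR letters GCGTGGGCG were in none (0.720%). Such matches describe letters only and do not show that a factor was bound.

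Total counts in sites ranged from 12258890 to 35548737 per library, lowest in 6 h replicate 1, and deposited peaks from 61873 to 142305, with the most in both 72 h libraries. A longer peak list at 72 h makes the absence of a 72 h peak a stricter condition than the absence of a 0 h peak. Gene-end sites of the erythroid genes GATA1, GFI1B, HBG1, HBG2, TAL1 and KLF1 had a peak in all 6 libraries. Of the lymphoid markers reported, PAX5 had no site and MS4A1 had no peak at its gene-end site, while CD2 had a peak in 3 libraries and CD3E and CD79A in all 6. The part of these last 3 in the results was not tested.

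The members were sparsely covered sites that rose above the typical site at 6 h and lay below it at 72 h. Their median level was 1.17 and 1.19 CPM (counts scaled by TMM library size) in the 0 h libraries, 3.41 and 2.66 CPM at 6 h, and 1.03 and 0.931 CPM at 72 h. Over all sites the medians were 1.36 and 1.39 CPM at 0 h, 1.79 and 1.71 at 6 h, and 2.22 in both 72 h libraries. In raw counts, the median member held 18 and 25 reads before PMA, 40 and 84 after 6 h, and 40 and 39.5 after 72 h. No member was empty in both 0 h libraries, but some held few reads before treatment, and whether such counts differ from background was not tested.

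**Figure D1:**
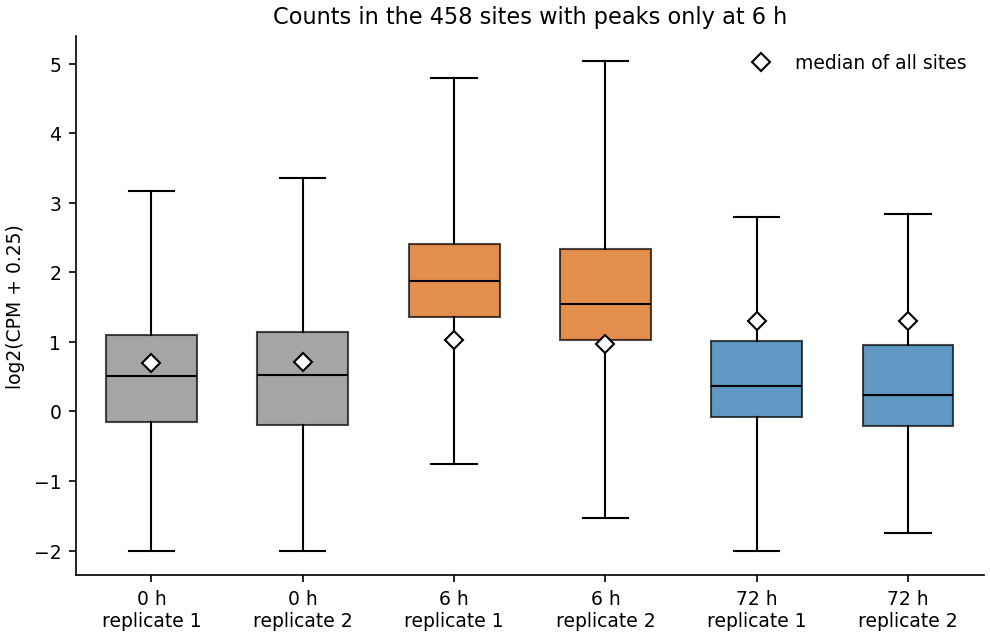
Level of the 458 sites in each library, as log2(CPM + 0.25). Boxes span the quartiles with the median as a line, whiskers reach the lowest and highest site, and diamonds give the median of all 181135 sites. The 6 h boxes sit above those of the other times.

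On the log2 scale the median member was 1.31 higher at 6 h than at 0 h (quartiles 0.63 and 2.12, range -0.81 to 4.82). Against 72 h the median gain at 6 h was 1.50 (quartiles 1.08 and 1.91, range -0.25 to 6.00). The same medians over all sites were 0.05 and -0.04. From single replicates the members' 6 h minus 0 h median was 1.32 and 1.06, and the 6 h minus 72 h median was 1.43 and 1.25. Since peaks of these same libraries chose the members, these differences are a description and carry no test.

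In 370 of the 458 members (80.8%), both 6 h libraries lay above all 4 others in CPM, an order that 11.3% of all sites showed. For the other 88 the groups overlapped or the order differed. Mean log2 CPM at 6 h was above both other times in 426 members and by over 1 in 227. It was below 0 h in 27 members and below 72 h in 5. In the edgeR fit over all 177759 tested sites, 284 of the 456 members tested passed as higher at 6 h against 0 h (adjusted p under 0.05), where 23.4% of all sites did. Against 72 h, 379 members passed as higher at 6 h, where 20.9% of all sites did. With scaling factors from sites with a peak in all 6 libraries 226 did, beside 5.23% of all sites. The rule used these contrasts, so nothing is read from either count.

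Seen at 72 h, the members did not share one level relative to 0 h. With TMM scaling both 72 h libraries lay above both 0 h libraries in 129 members (28.2%), below them in 191 (41.7%), and overlapped them in 138. Members of the first kind started low, at a median of 0.620 CPM, rose to 3.85 CPM and stood at 1.70 CPM at 72 h. Members of the second kind started at 1.75 CPM, reached 2.75 CPM and ended at 0.812 CPM. The order of 0 h and 72 h made this split, so the levels at those times, and any gain over 0 h, are set by it in part and are only a description. The share of all sites in each order is not given here, so the split is not read as particular to the members. By edgeR calls with TMM scaling, 38.2% of all sites were higher and 29.2% lower at 72 h than at 0 h, beside 18.0% and 27.2% of members. Of the members that ended low, 15.7% lay within 1000 bases of a gene end, against 4.65% of those that ended high. A low level at 72 h was common at gene starts in the whole table. With TMM scaling, 75.7% of all 13910 tested sites within 1000 bases of a protein-coding gene start were called lower at 72 h than at 0 h, and 8.37% higher.

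**Figure D2:**
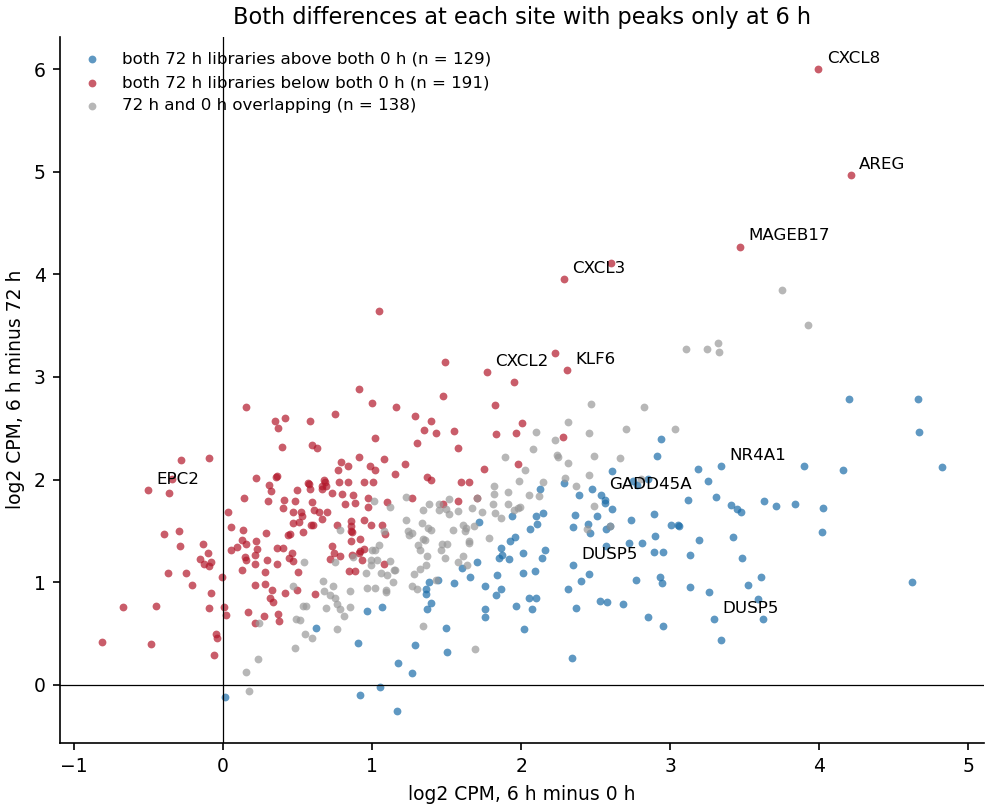
Difference in log2 CPM between 6 h and 0 h (horizontal axis) and between 6 h and 72 h (vertical axis) for each of the 458 sites. Colours give the order of the 72 h and 0 h libraries, and labels name the nearest gene. CXCL8 and AREG stand at the upper right, and DUSP5 lies far along the horizontal axis at a small difference from 72 h.

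The median difference between 72 h and 0 h, -0.15 with TMM scaling, changed sign with the scaling, to 0.30 with total counts and 0.73 with factors from sites with a peak in all 6 libraries. These scalings move the median of all sites too, from 0.29 to 0.79 and 1.26 in the edgeR fits. Taken relative to the median of all sites under the same scaling, the members stood at -0.45, -0.45 and -0.46, and at 1.27, 1.26 and 1.27 for 6 h minus 0 h. With TMM 82 members were called higher and 124 lower at 72 h than at 0 h, beside 38.2% and 29.2% of all sites. With total counts the split was 127 higher and 54 lower, beside 48% and 19.5% of all sites, and with factors from the shared sites 202 and 22, beside 57.8% and 11% of all sites.

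Peaks in the members were weak ones. By the authors' deposited values, their median −log10 q was 6.78 in 6 h replicate 1 and 9.95 in replicate 2, against 14.1 and 19.8 over all sites with a peak in those libraries. Median fold enrichment was 4.90 and 4.43, against 7.13 and 6.49. Both peaks reached a −log10 q of 5 in 330 members. Their summits lay a median of 79.5 bases apart, with 257 pairs within 100 bases, and in 452 members both summits fell inside the site. Members were 200 to 2212 bases wide, with a median of 509 against 588 for all sites, and in 227 a 6 h peak covered under 50% of the site.

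At the edge of the rule, the counts hardly showed a gain. The member with the weakest peak, inside EPC2 (chr2:148720615-148720922), had a −log10 q of 2.80 in its weaker library and held 34 and 39 reads before PMA, 21 and 35 after 6 h, and 29 and 5 after 72 h. Next came a site inside FBXO11, whose nearest gene end is that of the mismatch repair gene MSH6, with 11 and 15, 16 and 23, and 25 and 9 reads. A site inside PPIF, the gene for cyclophilin D, had 34 and 139, 81 and 195, and 42 and 38 reads, and its 0 h and 6 h libraries overlapped in CPM. Just outside the rule were 763 sites with both 6 h peaks and 1 other. Among the weakest of those other peaks were ones near ASAP3 (0 h replicate 1, −log10 q 2.73) and C6orf141 (0 h replicate 2, 2.98). The site near ASAP3 held 33 and 42 reads before PMA, 32 and 104 after 6 h, and 49 and 42 after 72 h, and that near C6orf141 held 17 and 40, 23 and 46, and 29 and 21.

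Most members, like most sites of the table, lay inside or between genes and away from gene ends. A protein-coding gene started or ended within 1000 bases of 43 members (9.39%), beside 10.7% of all sites, 3.50% of those whose peaks were confined to both 72 h libraries, and 31.5% of the sites with a peak in all 6. Inside a gene but away from its ends were 254 (55.5%, all sites 45.5%), and 161 (35.2%, all sites 43.9%) were outside genes and away from ends. The nearest gene end was a median of 17548 bases away, against 21653 for all sites. Members had a near neighbour more often than is typical, with the next site a median of 1529.5 bases away against 2449. No test was made on these shares.

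**Figure D3:**
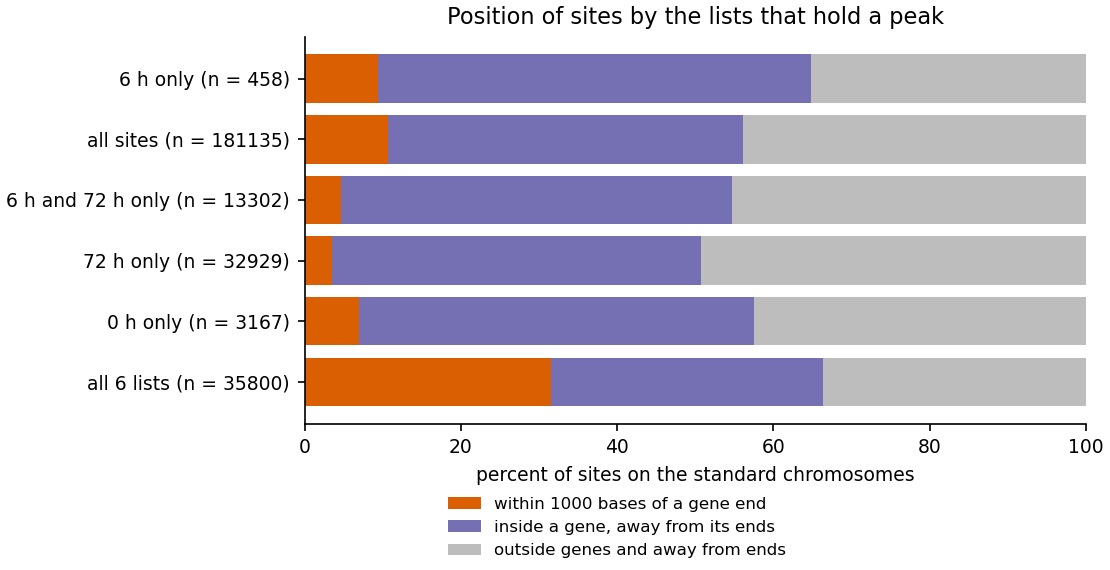
Share of sites by position relative to protein-coding genes of RefSeq, for the 458 sites with peaks only at 6 h, all sites, and sites with other combinations of peaks. The gene-end share of the 6 h sites is 9.39%, below the 31.5% of sites with a peak in all 6 libraries.

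Within 50000 bases of a protein-coding gene end were 342 members, next to 335 different genes, so the members were spread over the genome with few repeats. Chromosome 17 held 33, or 4.26 per 1000 sites, chromosome 9 held 3.59 and chromosome 22 3.51 per 1000, and chromosome 20 the fewest at 1.40, around 2.53 overall. Only 21 members lay within 50000 bases of another member, in 10 groups. The largest group was 3 sites at KLF6, and pairs lay inside TET3, a 5-methylcytosine dioxygenase gene, near DUSP5 and beyond PDHX, a pyruvate dehydrogenase component gene.

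Of the 9 gene lists drawn up for PMA and K562, inducible genes took most of the 15 members that lay nearest to a listed gene. Immediate early genes took 5 members (1.09%, beside 0.169% of all sites): 3 at KLF6 and 1 each at NR4A1 and TRIB1. NF-kB and inflammatory genes took 4 (0.873%, beside 0.117%), at CXCL8, CXCL3, CXCL2 and CSF2. ERK feedback and protein kinase C genes took 4 (0.873%, beside 0.216%), of which 2 were at DUSP5, 1 at PRKCH and 1 at PRKCB. Adhesion and erythroid genes took 1 each (0.218%, beside 0.214% and 0.105% of all sites), at PXN (paxillin) and TFRC (the transferrin receptor). AP-1 family, megakaryocyte, lymphoid and housekeeping genes took none, beside 0.130%, 0.129%, 0.0464% and 0.0541% of all sites. The list genes were not all equal in response: the CSF2 member, with 13 and 36 reads before PMA, 31 and 66 after 6 h, and 95 and 109 after 72 h, was 0.09 lower at 6 h than at 72 h in log2 CPM.

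The chemokine genes on chromosome 4 held the member with the largest difference from 72 h. CXCL8 encodes interleukin-8, a neutrophil attractant, and its member (chr4:73744033-73744850) lay 317 bases beyond the 3′ end of the gene. It measured 0.975 and 0.860 CPM before PMA, 13.2 and 18.7 CPM after 6 h, and 0.155 and 0.189 CPM after 72 h. The 6 h libraries were far above the rest, and 72 h lay below 0 h, with log2 differences of 3.99 from 0 h and 6.00 from 72 h. CXCL3 and CXCL2, whose products attract neutrophils through the same receptor, had members inside the gene, 439 and 465 bases from the nearer end. At CXCL3 (chr4:74037028-74037611) the libraries measured 2.79 and 4.16 CPM before PMA, 18.2 and 15.7 after 6 h, and 1.29 and 0.802 after 72 h. At CXCL2 (chr4:74097505-74098196) they measured 6.24 and 5.21, 21.3 and 18.0, and 2.04 and 2.59 CPM. All 3 chemokine sites thus ended below their 0 h level, by 2.01, 1.67 and 1.28 on the log2 scale. With factors from the shared sites the 72 h minus 0 h differences were -1.21, -0.74 and -0.33.

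Many of the sites beside these members, which the rule did not use, also gained at 6 h and lost that gain by 72 h. Exceptions were chr4:73735069-73735706 before CXCL8 (0.29 at 6 h by edgeR, adjusted p = 0.39) and chr4:74031760-74032389 beyond CXCL3 (0.23, adjusted p = 0.69), which gained 1.04 from 6 h to 72 h (adjusted p = 0.027), a call lost without 6 h replicate 2 (0.52, adjusted p = 0.37) or either 72 h replicate and with DESeq2. Along CXCL8, 3 further sites between the gene start and the member had a peak in 1 library each. The middle one (chr4:73742239-73742858) held 3 and 2 reads before PMA, 89 and 359 after 6 h, and 11 and 0 after 72 h. Its 6 h change by the edgeR quasi-likelihood test was 6.07 on the log2 scale (SE 0.60, adjusted p = 5.9e-08). Upstream of it, chr4:73741197-73741557 rose by 4.20 (SE 0.45, adjusted p = 2.2e-07) and fell again by 4.35 by 72 h (SE 0.41, adjusted p = 1.7e-07). The third, at the 3′ end of the gene (chr4:73743605-73743900), held 2 and 1, 29 and 160, and 0 and 2 reads, with adjusted p = 1.1e-06 at 6 h and 2.2e-07 for the return. Adjoining sites may share fragments, and how such reads were counted is not given in the sources used here.

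**Figure D4:**
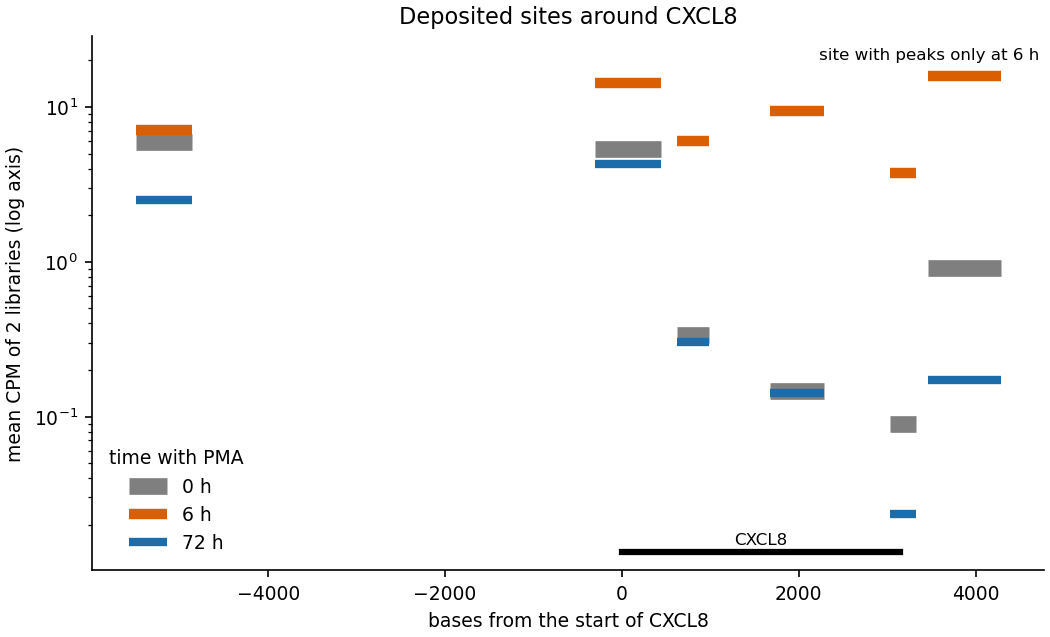
Deposited sites around CXCL8 by distance in bases from the gene's start, with each segment at the mean CPM of 2 libraries (log axis) and the gene as a black bar. At 6 h the sites along the gene and beyond its 3′ end lie above both other times, while the site at the start is open at all times. Where only 1 lower segment is seen, the 0 h and 72 h means nearly coincide.

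The starts of these genes were measured apart from the sites along them, and whether their changes differ from those was not tested. The CXCL8 start site (chr4:73740267-73741014), which had a peak in all 6 libraries, measured 4.48 and 6.21 CPM before PMA, 11.9 and 16.5 after 6 h, and 4.24 and 4.36 after 72 h. It rose by 1.41 on the log2 scale (edgeR, SE 0.24, adjusted p = 7.2e-05), and the rise was called under every alternative run. At CXCL3 the start site rose by 0.50 (SE 0.15, adjusted p = 0.013), a call lost without 0 h replicate 1 (0.36, adjusted p = 0.12) or without 6 h replicate 1 (0.36, adjusted p = 0.15), and with DESeq2 or its size factors. At CXCL2 the start site changed by 0.23 (SE 0.16, adjusted p = 0.28), not called, although it was called without 0 h replicate 2 (0.48, adjusted p = 0.041) and with factors from the sites with a peak in all 6 libraries (0.53, adjusted p = 0.0092). From 6 h to 72 h all 3 start sites fell, by 1.74 at CXCL8 (adjusted p = 6.5e-06), 1.99 at CXCL3 (adjusted p = 5.1e-08) and 1.68 at CXCL2 (adjusted p = 3.3e-07), calls made under every alternative run. Such a fall was common: with TMM scaling 68.9% of all 13910 tested sites at gene starts were called lower at 72 h than at 6 h. Beyond the 3′ end of CXCL3, a site 707 bases from its member (chr4:74035517-74036321) held 13 and 23 reads before PMA, 232 and 705 after 6 h, and 10 and 4 after 72 h. It rose by 4.41 (SE 0.30, adjusted p = 4.3e-10) and fell by 6.89 (SE 0.34, adjusted p = 1.0e-10). The like site beyond CXCL2 (chr4:74096074-74096876) rose by 1.62 (SE 0.19, adjusted p = 7.3e-07) and fell by 4.02 (SE 0.21, adjusted p = 2.0e-10).

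AREG, the gene for the EGF receptor ligand amphiregulin, lies further along chromosome 4, and its member (chr4:74455697-74456562) was 692 bases beyond the 3′ end. It measured 0.325 and 0.717 CPM before PMA, 10.4 and 10.3 after 6 h, and 0.310 and 0.212 after 72 h. The 6 h replicates nearly coincided and were higher than the others by 4.21 and 4.97 on the log2 scale. AREG's start site, at 27.4 and 26.9 CPM at 0 h and 27.3 and 24.5 at 6 h, changed by -0.07 (edgeR, SE 0.16, adjusted p = 0.76). From 6 h to 72 h it fell by 1.20 (SE 0.17, adjusted p = 8.4e-06), where 68.9% of all sites at gene starts were called lower. Between the start and the member, chr4:74446494-74446951 rose by 1.60 at 6 h (SE 0.29, adjusted p = 0.00013) and fell by 1.44 by 72 h (SE 0.27, adjusted p = 0.00019). Another there, chr4:74451002-74451682, rose by 1.02 (SE 0.22, adjusted p = 0.00084) and fell by 1.06 (SE 0.21, adjusted p = 0.00038), a fall not called with factors from the shared sites (-0.39, adjusted p = 0.12). The site 2118 bases inside from the member fell by 0.83 at 6 h (SE 0.28, adjusted p = 0.022), a call lost without 0 h replicate 1 (-0.47, adjusted p = 0.24) or without 6 h replicate 2 (-0.78, adjusted p = 0.11), and with total counts or factors from the shared sites.

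KLF6, a zinc finger transcription factor gene, had members 997 and 1373 bases upstream of its start and another 26494 bases beyond its 3′ end. The furthest upstream of the pair (chr10:3786582-3787217) measured 5.59 and 4.68 CPM before PMA, 27.4 and 23.9 after 6 h, and 2.84 and 3.14 after 72 h. Closer in, chr10:3786206-3786472 held 36 and 42 reads before PMA, 69 and 191 after 6 h, and 40 and 43 after 72 h. Between them and the gene lay the start site, at 69.4 and 64.7 CPM at 0 h and 73.7 and 69.0 at 6 h, which changed by 0.09 (edgeR, SE 0.15, adjusted p = 0.66). From 6 h to 72 h this start site fell by 1.64 (SE 0.15, adjusted p = 1.7e-07), where 68.9% of all sites at gene starts were called lower. At the gene's 3′ end a site with a peak in all 6 libraries (chr10:3775149-3776680) went from a mean of 6.88 CPM to 97.6 CPM and back to 8.81 CPM. That was a rise of 3.82 (SE 0.17, adjusted p = 1.3e-12) and a fall of 3.47 (SE 0.16, adjusted p = 3.7e-11). The gain at 6 h and its loss were thus found around the gene's 3′ end and upstream. At the start a fall by 72 h was called, but no rise at 6 h with TMM scaling, although factors from the shared sites did call 0.38 there.

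**Figure D5:**
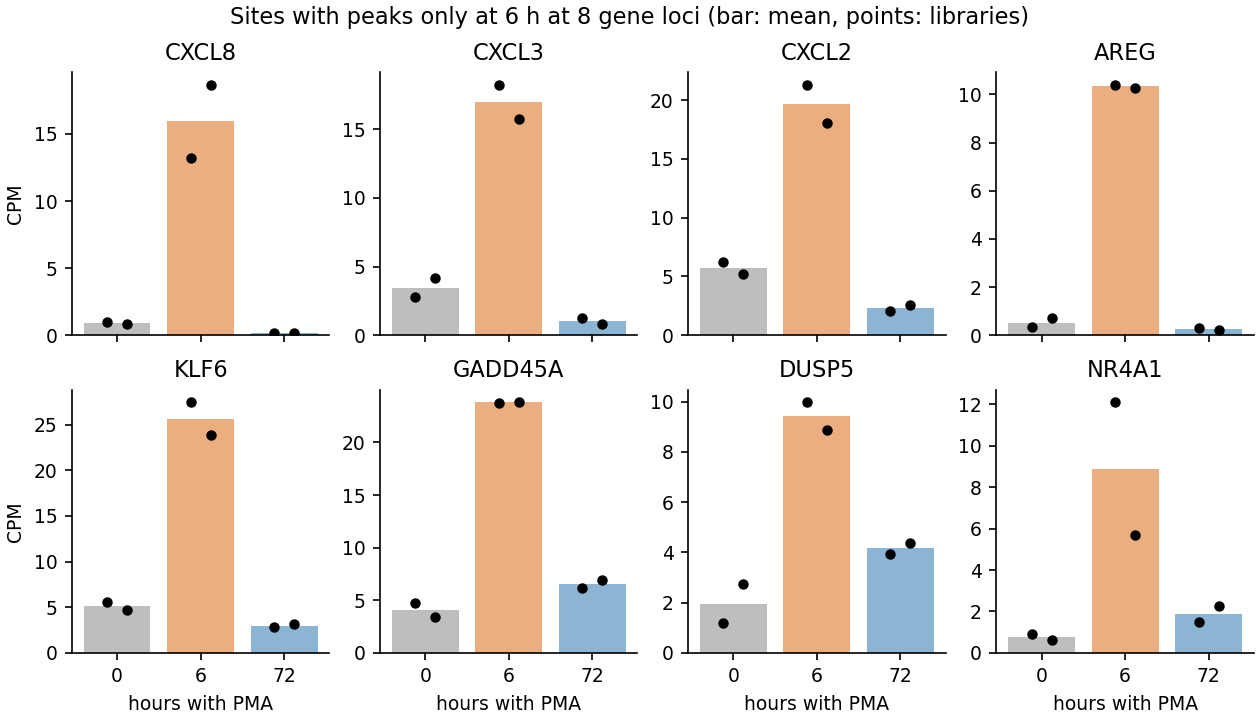
Level in CPM at 8 of the sites by hours of PMA, with bars for the mean and points for the 2 libraries. The sites at CXCL8, CXCL3, CXCL2, AREG and KLF6 end below their 0 h mean with TMM scaling, those at KLF6 and AREG not with factors from sites with a peak in all 6 libraries (0.19 and 0.04), and those at GADD45A, DUSP5 and NR4A1 end above it.

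At some other members part of the gain was left at 72 h. GADD45A, a stress-induced growth arrest gene, had a member 630 bases outside the gene (chr1:67684046-67684571) that measured 4.74 and 3.44 CPM at 0 h, 23.8 in both 6 h libraries, and 6.21 and 6.91 at 72 h. Both 72 h libraries lay above both 0 h libraries although neither had a peak. On the other side of the gene, chr1:67689551-67689842 rose by 3.15 (edgeR, SE 0.32, adjusted p = 9.3e-08) and fell by 3.48 (SE 0.30, adjusted p = 1.1e-07). Mean CPM went from 10.8 at 6 h to 0.966 at 72 h at this neighbour, and from 23.8 to 6.56 at the member. The member's 6 h minus 72 h difference in log2 CPM was 1.85, and whether these losses differ was not tested. At 72 h that neighbour was not called different from 0 h (-0.34, adjusted p = 0.42). Other sites of the locus were mixed at 72 h. For example, chr1:67691908-67692401 stood 1.29 above 0 h (adjusted p = 0.00045), and chr1:67684763-67685624, with a peak in all 6 libraries, stood 1.59 below it (adjusted p = 1.5e-08).

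DUSP5 encodes a nuclear phosphatase that inactivates ERK. Its nearer member (chr10:110496128-110496631) measured 1.17 and 2.72 CPM before PMA, 9.97 and 8.89 after 6 h, and 3.93 and 4.39 after 72 h. The other (chr10:110529013-110529509), 17480 bases away from the gene, measured 0.715 and 0.526, 7.24 and 6.13, and 4.63 and 3.91 CPM. In both, 72 h stood between the other times and overlapped neither with TMM scaling. With factors from the shared sites the 6 h minus 72 h difference went from 1.17 to 0.50 at the nearer member and from 0.64 to -0.02 at the distant one, so that drop depends on the scaling. Around the distant member, chr10:110525677-110526441 rose by 5.59 at 6 h (edgeR, SE 0.33, adjusted p = 8.1e-11) and was still 5.07 above 0 h at 72 h (SE 0.33, adjusted p = 1.7e-10). Further out, chr10:110535807-110536863 rose by 3.56 (SE 0.20, adjusted p = 3.6e-11) and remained 2.39 above 0 h (SE 0.19, adjusted p = 1.7e-09). So the distant DUSP5 member lies among sites that were open at both PMA times, and its own lack of a 72 h peak did not mean a return to the 0 h level.

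NR4A1, an immediate early gene for an orphan nuclear receptor, had a member 244 bases beyond its 3′ end (chr12:52059747-52060335). The libraries measured 0.910 and 0.621 CPM before PMA, 12.1 and 5.69 after 6 h, and 1.50 and 2.24 after 72 h, so the 6 h replicates differed by more than at any locus above. Nearby, chr12:52063973-52064648 rose by 2.07 at 6 h (edgeR, SE 0.24, adjusted p = 5.9e-07) and stood 1.56 above 0 h at 72 h (SE 0.24, adjusted p = 6.8e-06). The member near TRIB1, a pseudokinase gene on chromosome 8, held 5 and 7 reads before PMA, 86 and 152 after 6 h, and 45 and 61 after 72 h. PXN, the gene for the focal adhesion protein paxillin, held a member with 15 and 23, 105 and 257, and 122 and 159 reads. In log2 CPM the TRIB1 and PXN members were 2.13 and 1.29 higher at 6 h than at 72 h, and 1.49 and 0.63 higher with factors from the shared sites. Of the protein kinase C members, PRKCH had 2 and 2 reads before PMA, 21 and 33 after 6 h, and 41 and 32 after 72 h, and PRKCB had 20 and 32, 36 and 72, and 51 and 37. These are raw reads, and the 72 h libraries were the larger ones.

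By level at 6 h, the leading member lay inside GABRE, a GABA-A receptor subunit gene on the X chromosome (chrX:151966376-151968587). It held 64 and 181 reads before PMA, 288 and 1033 after 6 h, and 94 and 150 after 72 h, and its 0 h libraries differed, at 4.16 and 8.65 CPM. MAGEB17, of the melanoma antigen family, held another member on that chromosome (chrX:16168545-16170588), at 1.95 and 1.58 CPM, 19.8 and 20.5 CPM, and 1.11 and 0.849 CPM. Its neighbour 137 bases away rose by 3.41 (edgeR, SE 0.52, adjusted p = 2.0e-05) and fell by 4.33 (SE 0.50, adjusted p = 1.4e-06), while another 7226 bases away rose by 4.35 (SE 0.45, adjusted p = 1.1e-07) and stood 4.70 above 0 h at 72 h (SE 0.43, adjusted p = 7.1e-09). FAM86B1 on chromosome 8, with 51 and 45 reads before PMA, 271 and 849 after 6 h, and 258 and 208 after 72 h, and AMN1, with 99 and 134, 247 and 668, and 235 and 244, had members 3001 and 4387 bases from the gene.

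Several of the steepest gains lay away from the ends of their nearest protein-coding gene. AP3S1, an adaptor complex subunit gene, had a member 14869 bases beyond its 3′ end with 23 and 46 reads before PMA, 203 and 647 after 6 h, and 66 and 81 after 72 h. Beyond PHLDA1, an immediate early gene, the nearest member was 53677 bases away and held 10 and 5, 103 and 185, and 26 and 20 reads. Members inside HMCN2 (5 and 5, 99 and 82, and 6 and 17 reads) and EIPR1 (11 and 7, 96 and 122, and 13 and 34 reads) and another 178172 bases from the gene LOC124901165 (8 and 16, 133 and 122, and 43 and 14 reads) gained over 3 on the log2 scale against both other times. In these 3 the 6 h replicates disagreed on the size of the gain, at 8.44 and 2.59 CPM in HMCN2, 8.18 and 3.86 CPM in EIPR1, and 11.3 and 3.86 CPM near LOC124901165. Without 6 h replicate 1 the gains over 0 h were 2.94, 2.81 and 2.49, so a gain over 3 rests on that library. SH3RF2, in contrast, held a member with 9 and 26, 95 and 257, and 152 and 185 reads that was 0.96 higher at 6 h than at 72 h. With factors from the shared sites that difference was 0.29.

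Of the paired members, those inside TET3 (chr2:73993639-73994342 and chr2:74001086-74001598) held 18 and 17 and 17 and 40 reads before PMA, 114 and 266 and 142 and 355 after 6 h, and 107 and 99 and 85 and 90 after 72 h. The PDHX pair gained 2.68 and 1.97 over 0 h on the log2 scale but stood only 0.79 and 0.77 above 72 h. With factors from the shared sites the differences from 72 h were 0.12 and 0.13. At the other end, the members with the lowest 6 h minus 0 h differences were inside LRP8 (-0.81), GALNT11 (-0.67) and EPC2 (-0.50). LRP8, the apolipoprotein E receptor 2 gene, held 24 and 33 reads before PMA, 11 and 25 after 6 h, and 22 and 29 after 72 h. Peaks were thus called at 6 h at sites where the scaled level was not higher than before treatment.

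The surroundings of the members, which the rule did not use, were tested with the edgeR fit. Within 10000 bases of a member lay 1394 other sites, beside 424 of the members, and 1376 of them were tested. At 6 h 385 (28.0%) passed as higher against 0 h, against 23.4% of all tested sites, and 287 (20.9%) were called lower, against 16.8%. From 6 h to 72 h, 463 (33.6%) were called higher at 6 h, against 20.9%, and 175 (12.7%) higher at 72 h, against 22.1%. With TMM scaling the neighbours thus stood nearer the background at 6 h than in their loss by 72 h. Their calls against 72 h were not counted under other scalings. The share of all sites higher at 6 h than at 72 h was 11.5% with total counts and 5.23% with factors from the shared sites. A peak in all 6 libraries was found at 346 of the 1394 neighbours, against 19.8% of all sites, and the part of that in the counts was not tested.

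These shares followed no steady order among the bands nearest the members. Higher at 6 h than at 72 h were 41.0% of the 195 tested neighbours within 1000 bases, 27.3% of the 576 at 1000 to 5000 bases, and 37.4% of the 605 at 5000 to 10000 bases. From 50000 to 100000 bases the share was 28.6%, and beyond that 20.2%. For higher at 6 h than at 0 h, the shares were 26.2%, 28.8% and 27.8% in the 3 near bands, 25.5% at 50000 to 100000 bases, and 23.1% beyond. With DESeq2 size factors in edgeR, 25.4% of neighbours were called higher and 26.6% lower at 6 h, against 20.8% and 21.7% of all sites, so which direction led among the neighbours depends on the scaling.

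Few of the gene starts beside the members were called higher at 6 h. Of the 335 nearest genes within 50000 bases, 218 had a site of the table at an annotated start that was not itself a member. There were 255 such sites tested, and 16 (6.27%) passed as higher at 6 h against 0 h, where 7.36% of all sites at gene starts did. Called lower were 123 (48.2%), where 39.9% of all start sites were. With factors from sites shared by all 6 libraries the calls became 31 higher and 28 lower, so the split depends on the scaling. Counting either end of the nearest gene, 23 of 200 sites (11.5%) were called higher and 84 (42%) lower, against 9.87% and 36.3% of all sites at gene ends. From 6 h to 72 h, with TMM scaling, 220 of the 255 start sites (86.3%) were called lower, where 68.9% of all start sites were.

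Among the 16 start sites that rose, those of 4 genes are given as the largest, chosen after their values were seen. WHRN, a scaffold protein gene, rose most (edgeR adjusted p = 4.1e-07), from a mean of 0.811 CPM to 6.72 CPM at an internal start (chr9:114426315-114427021), and MITF, a transcription factor gene, rose by 1.88 on the log2 scale (SE 0.33, adjusted p = 0.00011) near an internal start. BFSP1, a lens filament gene, rose by 1.88 (SE 0.23, adjusted p = 9.9e-07). IL11, the gene for the cytokine interleukin-11, rose by 1.58 (SE 0.17, adjusted p = 2.2e-07) at a start site with 174 and 250 reads before PMA, 376 and 1183 after 6 h, and 712 and 819 after 72 h. Its member, 2051 bases from the gene, held 51 and 59, 114 and 356, and 96 and 97 reads, so the start site ended above its 0 h level while the member ended 0.35 below it with TMM scaling, and 0.14 and 0.59 above it with total counts and with factors from the shared sites.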

How the data were processed

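ATAC-seq libraries of K562 cells (0 h, 6 h and 72 h of PMA, 2 each) were compared. The authors deposited a table of raw counts per site and peak lists with a score, a fold enrichment (ratio), −log10 p and −log10 q for each peak. Per the submitters' processing notes, Trim Galore 0.4.3, BWA 0.7.17, SAMtools 1.9, MACS2 and bedtools 2.26 were used with build hg38. The read counting rule, duplicate handling and any shift of cut sites are not given in the sources used here. The authors' deposited log2 fold changes and adjusted p-values were read only for the closing observations. Site starts in the table are counted from 0 and are printed counted from 1.

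Counts were scaled by TMM and fitted over all 6 libraries with edgeR 4.0.16 (quasi-likelihood test, filterByExpr with a minimum of 10, Benjamini-Hochberg over 177759 of 181135 sites, called at adjusted p under 0.05). Log2 CPM used a prior count of 2. SEs were taken from the fold change and the F statistic. Replicates of a time differed beyond sampling noise (chi-square per degree of freedom 3.48 to 4.62), so none was merged. Genes came from RefSeq GRCh38.p14. Scripts were tested on simulated data.

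Members and lists were chosen with earlier results of these data known. Sites named were the highest at 6 h, the largest differences, those at gene ends or listed genes, grouped sites, those at the edge of the rule and those lowest against 0 h, plus neighbours within 10000 bases. Others are marked as chosen after seeing values, as are the sites at gene starts and the promoter windows, which were added later. Alternatives were other scalings, filters, tools, peak thresholds and leaving out libraries. Some items covered by these rules are not reported here.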

Additional observations from a re-analysis of the deposited data

How the results depend on the processing

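The members' median log2 difference from 0 h was 1.58 with factors from the sites with a peak in all 6 libraries, and that from 72 h was 1.16 with total counts and 0.87 with those factors. The difference between 72 h and 0 h was -0.32 with DESeq2 size factors, -0.36 with DESeq2 1.42.0, 0.30 with total counts and 0.73 with factors from the shared sites. With those last factors 226 members passed as higher at 6 h against 72 h (5.23% of all sites did), 202 as higher and 22 as lower at 72 h against 0 h (57.8% and 11% of all sites), and 157 neighbours lower at 6 h. With total counts the calls at 72 h against 0 h were 127 higher and 54 lower (48% and 19.5% of all sites), and DESeq2 called 53 higher (28.5%).

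Leaving out 1 library at a time gave medians of 1.19 to 1.35, 1.38 to 1.56 and -0.25 to -0.13 for 6 h minus 0 h, 6 h minus 72 h and 72 h minus 0 h. It gave 240 to 262 members passing as higher at 6 h against 0 h, 268 to 396 as higher at 6 h against 72 h, and 128 to 211 called at 72 h against 0 h (58 to 83 higher, 70 to 129 lower). Both the 128 and the 70 came without 72 h replicate 2. Called neighbours were 294 to 368 higher and 226 to 282 lower, and start sites 12 to 20 higher and 71 to 132 lower.

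The rule moved most. Ignoring a 0 h library gave 512 or 596 members and ignoring a 72 h library 698 or 789. Asking for a peak in 1 of the 6 h libraries gave 985 (replicate 1) or 3909 (replicate 2). Equal numbers of the strongest peaks in each list gave 1968, with 164 of the 458 among them. Asking for an overlap of 50% of the site gave 477 sites, of which 231 were among the 458. The gene-end share was 6.55% within 500 bases and 23.8% within 5000. Neighbours called higher at 6 h than at 0 h were 217 (28.1%) within 5000 bases and 852 (27.3%) within 25000, beside 23.4% of all sites. Other values, for single sites, gene lists and gene starts, kept their value or their side of the threshold in 2244 cases, moved in 312, lost a call in 77 and gained 1 in 36, and no called change reversed.

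Replicate numbers did not pair the libraries (correlation of deviations 0.082, 0.053 and 0.085), and no label ties them. With the replicate block the medians were 1.33, 1.57 and -0.18, and every count of members or neighbours stayed within 1.5 times. Motif shares over whole sites, and over their centres, were not run because no genome was used here. With 2 libraries a time, and a median of 18 and 25 reads per member at 0 h, small differences at single members are not resolved.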

Other observations

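In the authors' deposited table the members' median log2 fold change was 0.92 at 6 h and -0.27 at 72 h, and 417 of the 458 were above 0 at 6 h. The authors' adjusted p, taken here as one for the time course and not for 6 h alone, was under 0.05 for 361 members, beside 57.3% of all sites. The same table gives each site a class, and 345 members were classed static, 69 upLate, 23 downEarly, 17 upEarly and 4 downLate. These class names did not follow the sign of the deposited fold changes. Over all sites, the class downEarly had median log2 fold changes of 0.74 at 6 h and 2.26 at 72 h, and the class downLate 0.87 and 2.30, so most sites named as falling had values above 0. The classes were therefore not used in any comparison.

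Read counts and peak calls did not always agree at single members. The member inside TPM1, a tropomyosin gene, held 1 and 6 reads before PMA, 6 and 3 after 6 h, and 8 and 3 after 72 h, and that near FCRL5 held 3 and 5, 5 and 3, and 5 and 3 reads. Both were chosen after their values were seen. Their 6 h peaks were nonetheless in both deposited lists.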
